A study of Mus musculus with 6 samples.

Results

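The T cell receptor (TCR) complex and the proteins that act next to it were examined in regulatory T cells (Tregs) of the bone marrow (BM) of mice with chronic myeloid leukemia (CML). The set holds 33 genes, taken as the rows of the deposited expression tables whose feature name equals a member: 4 chains of the CD3 complex, the coreceptor Cd4, 5 kinases, 7 adaptors and regulators at the receptor, 4 genes of the branch around diacylglycerol and NF-κB, 5 phosphatases and their partners, 5 ubiquitin ligases and SLAP-type adaptors, and the inhibitory receptors Cd5 and Cd6. Each library listed 36930 features. All 33 members were among the 13923 genes tested, those averaging 1 RPKM or more.

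Each of the 2 groups held 3 mice with 1 RNA-Seq library per mouse. All 6 mice carried the Foxp3-DTR-GFP genotype and strain, in which Foxp3-expressing cells bear the diphtheria toxin receptor and GFP, and were labelled as 8 weeks old. CML mice had received, by intravenous injection and without irradiation, lineage-negative Sca-1+ c-Kit+ stem and progenitor cells (LSKs) transduced with BCR-ABL1-GFP, a retroviral form of the fusion oncogene of CML, and were studied 15 days later. Naive mice carried no leukemia. BCR-ABL1 cells and the Foxp3 reporter both bear GFP, and the sort started from CD4+ cells, so the level of Cd4 is not an independent finding. These are bulk libraries, in which fewer cells of a type and less RNA per cell cannot be told apart. The p-values cover only the spread between these libraries. With 1 library per mouse, differences between mice cannot be told apart there from those of sort, amplification and depth.

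As background, a TCR has no enzymatic activity of its own. Its α and β chains bind peptide on MHC molecules, and the CD3 and ζ chains (the latter encoded by Cd247) carry ITAM motifs that Lck phosphorylates and that ZAP-70 then binds. ZAP-70 phosphorylates the scaffolds LAT and SLP-76, which recruit phospholipase C-γ1, and the diacylglycerol and calcium that it releases feed the PKC-θ to NF-κB, Ras to MAPK and calcineurin to NFAT branches. Tregs need TCR signals to develop and to keep their suppressive program, and phosphatases, CBL-type ubiquitin ligases and SLAP-type adaptors hold these signals down.

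None of the 33 members differed between CML and naive BM Tregs at an adjusted p under 0.05 with a fold change of at least 1.5 (limma on log2(RPKM + 1), Benjamini-Hochberg over all 13923 genes), a rule that called 0.172% of all genes tested. The largest differences were lower Prkcq, lower Sh2d1a and higher Malt1, and all 3 had an unadjusted p under 0.05. At an unadjusted p under 0.05 with the same fold, 1 member (3.03%) was higher in CML beside 2.61% of all genes, and 2 members (6.06%) were lower beside 5.94% of all genes. Without a demand on fold, 2 members were higher (Malt1 and Sla2, beside 2.92% of all genes) and 2 were lower (Prkcq and Sh2d1a, beside 6.77%). These shares lay near the background or rested on 1 or 2 genes. The log2 fold change was above 0 for 15 members (45.5%, beside 35.7% of all genes). The median log2 fold change was −0.08 over the members and −0.18 over all genes, which became 0.10 and −0.03 without CML replicate 2, and the median size regardless of sign was 0.21 over the members and 0.36 over all genes. Fold changes are on the log2(RPKM + 1) scale, CML relative to naive, which understates the change of low genes.

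The libraries were not of one quality, and this bears on every gene below. Read numbers were estimated, since the files give no counts. The smallest recurring product of RPKM and length among miRNA and snoRNA features was taken as 1 read. These rough estimates ranged from 5187987 to 9751911 in the naive libraries and were 7613827, 829181 and 2286190 in CML replicates 1, 2 and 3. In CML replicate 2 the 10 most abundant features took 50.7% of the signal, against 28.5% to 31.3% in the other libraries. For that library, 7 of the 33 members rested on fewer than 100 estimated reads, Tec on as few as 12. Markers of other cells also differed: the summed level of 10 neutrophil and myeloid markers was 22.0, 212 and 218 RPKM in CML replicates 1, 2 and 3 and 32.3 to 61.9 RPKM in the naive libraries with Ly6g at 0 in all 6, the erythroid sum was 122, 35.6 and 203.5 RPKM against 5.01 to 29.6 RPKM, and Cd8a plus Cd8b1 reached 59.4, 51.1 and 74.2 RPKM against 26.2 to 58.7 RPKM. Singly, only Elane and Csf1r of the myeloid list separated, in opposite directions. Elane was higher in CML (3.95, 7.56 and 29.1 RPKM against 2.66, 1.43 and 3.34 RPKM). Csf1r was lower (0.609, 0 and 0.447 RPKM against 1.83, 1.64 and 0.83 RPKM). Lyz2 was highest in CML replicate 1, at 12.6 RPKM, the library with the low sum. The sum of 4 stem and progenitor markers was 6.80, 8.77 and 7.89 RPKM against 2.57 to 3.93 RPKM, higher in every CML library. Of these stem and progenitor markers only Gata2 separated singly, at 2.003, 8.357 and 2.425 RPKM in CML against 0, 0.948 and 0 RPKM in naive mice. Kit, Cd34 and Meis1 had overlapping groups, and Cd34 and Meis1 were at 0 in CML replicate 2. The B cell marker sum (8.80, 7.28 and 3.18 RPKM against 8.42 to 10.7 RPKM) overlapped between the groups. So did that of gamma delta T and NK cell markers (2.85, 6.55 and 6.43 RPKM against 2.44 to 4.95 RPKM). The part of depth and of these markers in the results below was not tested. Foxp3, which defines the sorted cells, was at 468, 299 and 427 RPKM in the CML libraries and at 297, 367 and 349 RPKM in the naive ones. The Treg markers Il2ra and Ikzf2 also had overlapping groups. Ctla4, a further Treg marker, was at 222, 205 and 213 RPKM in CML and 178, 154 and 142 RPKM in naive mice, without overlap (adjusted p = 0.405, limma).

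**Figure D1:**
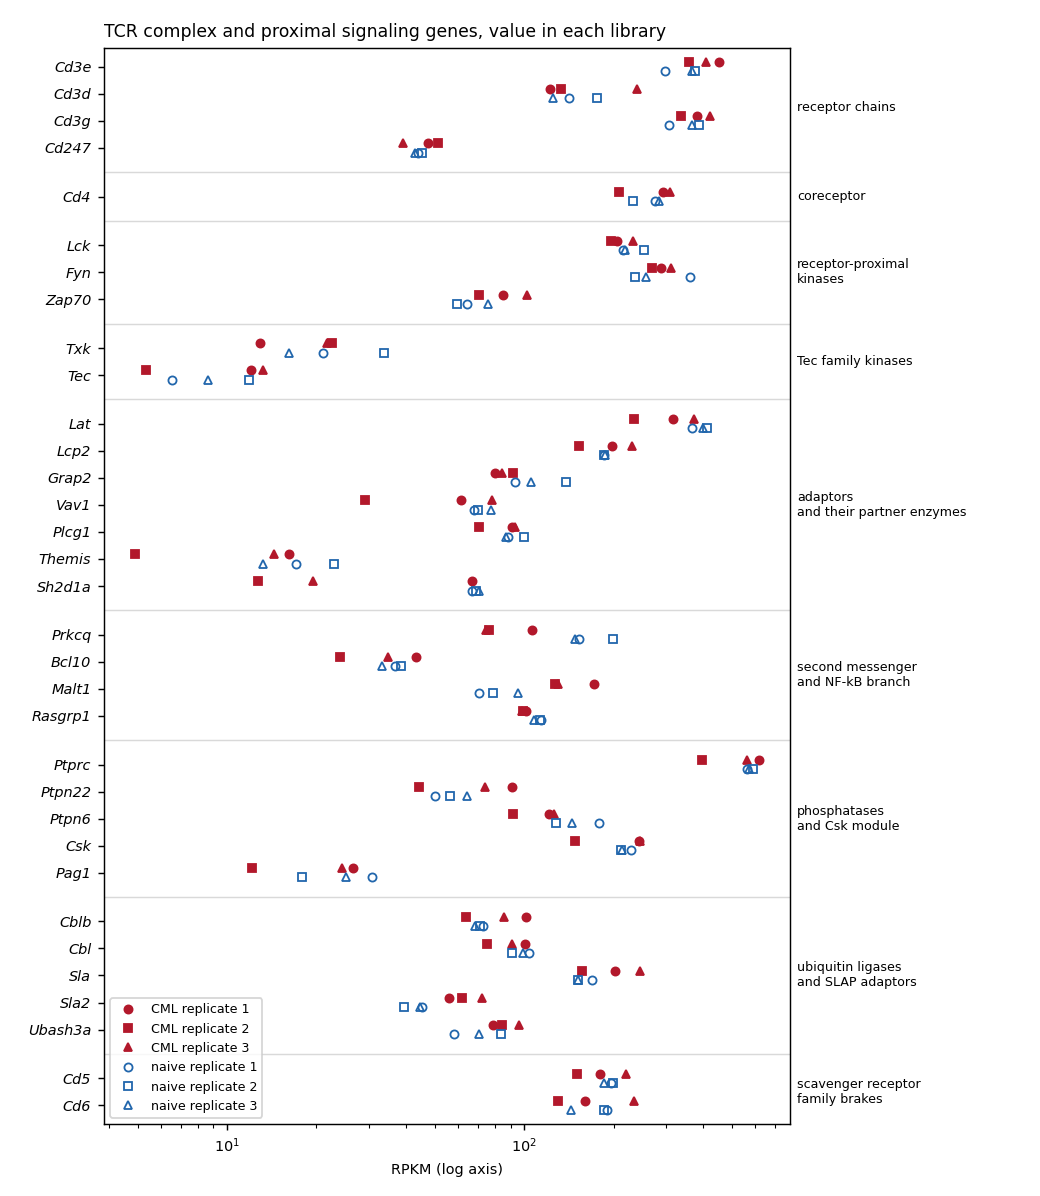
RPKM of each member in each library on a log axis, grouped by role; filled red symbols are the 3 CML and open blue symbols the 3 naive libraries, with circle, square and triangle for replicates 1, 2 and 3. The 2 groups interleave for most members, Sh2d1a is spread over the CML libraries (66.9, 12.7 and 19.5 RPKM), and Prkcq and Malt1 separate in opposite directions.

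The CD3 chains and Cd4 had overlapping groups. Cd3e, a CD3 chain that pairs with either Cd3d or Cd3g, measured 453, 359.7 and 408 RPKM in the CML libraries and 299, 375 and 369 RPKM in the naive ones. The CML range overlapped the naive range through replicate 2, and the log2 fold change was 0.23 with a 95% interval from −0.14 to 0.60 (adjusted p = 0.666, limma). Cd3d measured 122, 133 and 240.4 RPKM in CML and 141, 175 and 125 RPKM in naive mice. CML replicate 3 was the highest of the 6 and CML replicate 1 the lowest, and the interval ran from −0.52 to 0.74. Cd3g, at 381 ± 42.0 RPKM (SD, n = 3) in CML and 354 ± 41.9 RPKM in naive mice, differed by 0.10 (−0.26 to 0.47).

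Cd247, whose ζ chain is the main source of ITAMs in the receptor, was the lowest of the 4 signaling chains in every library at 47.3, 51.4 and 39.2 RPKM in CML and 43.9, 45.2 and 42.8 RPKM in naive mice. The naive values fell inside the CML range, and the log2 fold change was 0.05 (−0.38 to 0.49). Exons of Cd247 overlap those of Pou2f1 on the opposite strand over 2136 bases and of Gm16565 on the same strand over 206. The part of reads from these genes in the Cd247 values, ratio and interval was not tested. Set against Cd3e within each library, Cd247 amounted to 0.104, 0.143 and 0.0961 of the Cd3e level in CML and 0.147, 0.121 and 0.116 in naive mice, with overlapping groups. This is 1 of 15 sums and ratios computed in all, chosen after the values were seen and given without a test, of which 9 had separate groups and 6 overlapped. Cd4, the coreceptor that brings Lck to the receptor and a gate of the sort, was at 270.5 ± 54.4 RPKM (SD, n = 3) in CML and 265 ± 27.4 RPKM in naive mice. For all of these 5 genes the 95% interval excluded a 2-fold difference in either direction.

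The constant regions of the TCR chains, which were not members, did not follow the CD3 chains in the same way. Trac, the α chain constant gene, measured 642, 477 and 675 RPKM in CML and 449.9, 571 and 481 RPKM in naive mice, with overlapping groups. Trbc1 and Trbc2, the near-identical β chain constant genes between which reads may be split, summed to 633, 485 and 735 RPKM in CML and 859, 937 and 786 RPKM in naive mice. Every CML library lay below every naive one in that sum. The ratio of β to α constant signal was 0.986, 1.02 and 1.09 in the CML libraries and 1.91, 1.64 and 1.64 in the naive ones. The 2 groups did not overlap. Singly, Trbc1 had a log2 fold change of −0.64 (adjusted p = 0.470, limma), Trbc2 of −0.39 (adjusted p = 0.489) and Trac of 0.25 (adjusted p = 0.684).

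Each of the 5 kinases near the receptor had overlapping groups. Lck, which starts the cascade, measured 206, 196 and 232 RPKM in CML and 215, 254 and 218 RPKM in naive mice (log2 fold change −0.12, 95% interval −0.46 to 0.22). Fyn, the related SRC-family kinase, measured 288, 270.3 and 311 RPKM in CML and 363, 236 and 257 RPKM in naive mice, and the CML values fell inside the naive range. Zap70 was at 85.0, 70.6 and 103 RPKM in CML and at 64.2, 59.4 and 75.3 RPKM in naive mice. CML replicates 1 and 3 lay above every naive library and CML replicate 2 between them, with a log2 fold change of 0.36 ± 0.20 (SE, limma, adjusted p = 0.592) that became 0.50 without CML replicate 2 (adjusted p = 0.335). The Zap70 to Lck ratio was 0.413, 0.360 and 0.443 in CML and 0.299, 0.234 and 0.345 in naive mice, without overlap, whereas the Lck to Fyn ratio (0.715, 0.725 and 0.744 against 0.593, 1.08 and 0.848) and the Csk to Lck ratio (1.18, 0.757 and 1.06 against 1.06, 0.833 and 0.982) overlapped. The TEC-family kinases Txk and Tec, which act on phospholipase C-γ1, were lower in level than the other kinases in all 6 libraries, with 12.9 to 22.5 RPKM of Txk and 5.32 to 13.2 RPKM of Tec in CML against 16.1 to 33.7 and 6.51 to 11.9 RPKM in naive mice.

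Upstream sequence from RefSeq was found for 27 of the 33 members, taken as the 250 bases before the most 5′ start on GRCm38.p6. Zap70 is printed because it was the 1 member of the 27 with a cyclic AMP response element (TGACGTCA on either strand), a match held by 1.6% of all 27018 such windows. The window is chr1:36761548-36761797 on the plus strand, and capitals mark matches to NFAT (TGGAAA, here on the opposite strand), ETS (CCGGAA) and the response element, which begin 239, 89 and 18 bases before the start.
Zap70: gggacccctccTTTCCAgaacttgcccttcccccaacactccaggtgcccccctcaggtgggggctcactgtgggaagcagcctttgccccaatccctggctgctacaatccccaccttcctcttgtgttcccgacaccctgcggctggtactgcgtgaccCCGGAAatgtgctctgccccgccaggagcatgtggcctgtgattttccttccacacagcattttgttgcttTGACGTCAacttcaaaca
Over the 27 windows, TGGAAA was found in 4 (14.8%) against 18.8% of all windows, CCGGAA in 2 (7.41%) against 12.2%, and the AP-1 letters TGAGTCA in 0 against 4.43%. The median GC content was 57.2% in the members' windows and 52% in all. A match is a description of letters and not a binding site.

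The 7 adaptors and regulators at the receptor had a median log2 fold change of −0.38, and their medians against the naive mean were −0.09, −0.74 and −0.07 in CML replicates 1, 2 and 3. Without CML replicate 2 the median log2 fold change was −0.17, where that of all genes was −0.03. Lat, the membrane scaffold phosphorylated by ZAP-70, measured 316, 235 and 373 RPKM in CML and 368, 412 and 399 RPKM in naive mice. CML replicates 1 and 2 lay below the naive range and CML replicate 3 inside it (log2 fold change −0.37, −0.81 to 0.06, adjusted p = 0.572). Grap2, whose product GADS links LAT to SLP-76, was lower in every CML library (79.8, 91.5 and 84.3 RPKM) than in any naive one (92.9, 138 and 105 RPKM), and its log2 fold change was −0.38 ± 0.19 (SE, limma, adjusted p = 0.570). Lcp2, which encodes SLP-76, was tightly held in naive mice at 186 ± 0.879 RPKM (SD, n = 3) and was 198, 154 and 230.4 RPKM in CML, on both sides of it. Plcg1, which encodes phospholipase C-γ1, was at 84.8 ± 12.6 RPKM in CML and 91.7 ± 7.18 RPKM in naive mice (−0.12, adjusted p = 0.834). Vav1, an exchange factor phosphorylated after receptor engagement, measured 61.3, 29.2 and 77.8 RPKM in CML and 67.7, 70.2 and 77.1 RPKM in naive mice, with CML replicate 2 far below the rest.

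Sh2d1a, which encodes SAP, the adaptor that couples SLAM-family receptors to Fyn, differed most among the CML mice. It measured 66.9, 12.7 and 19.5 RPKM in CML and 66.8, 69.1 and 70.3 RPKM in naive mice. CML replicate 1 sat inside the narrow naive range while CML replicates 2 and 3, which are the shallower libraries and those with the high myeloid marker sum, lay below it on an estimated 29 and 123 reads. The log2 fold change was −1.38 ± 0.52 (SE, limma, adjusted p = 0.467). It was −2.06 without CML replicate 1 (adjusted p = 0.0538) and −0.90 without CML replicate 2 (adjusted p = 0.484), and over the 13 alternative analyses the adjusted p ran from 0.0538 to 0.894. Exons of Sh2d1a overlap those of Tenm1 on the opposite strand over 1465 bases in GENCODE M21. Themis, a T-lineage protein that tunes early TCR signals, measured 16.2, 4.90 and 14.4 RPKM in CML and 17.0, 23.0 and 13.2 RPKM in naive mice, and its interval (−1.73 to 0.41) was too wide to tell a loss from a gain, CML replicate 2 resting on an estimated 21 reads.

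**Figure D2:**
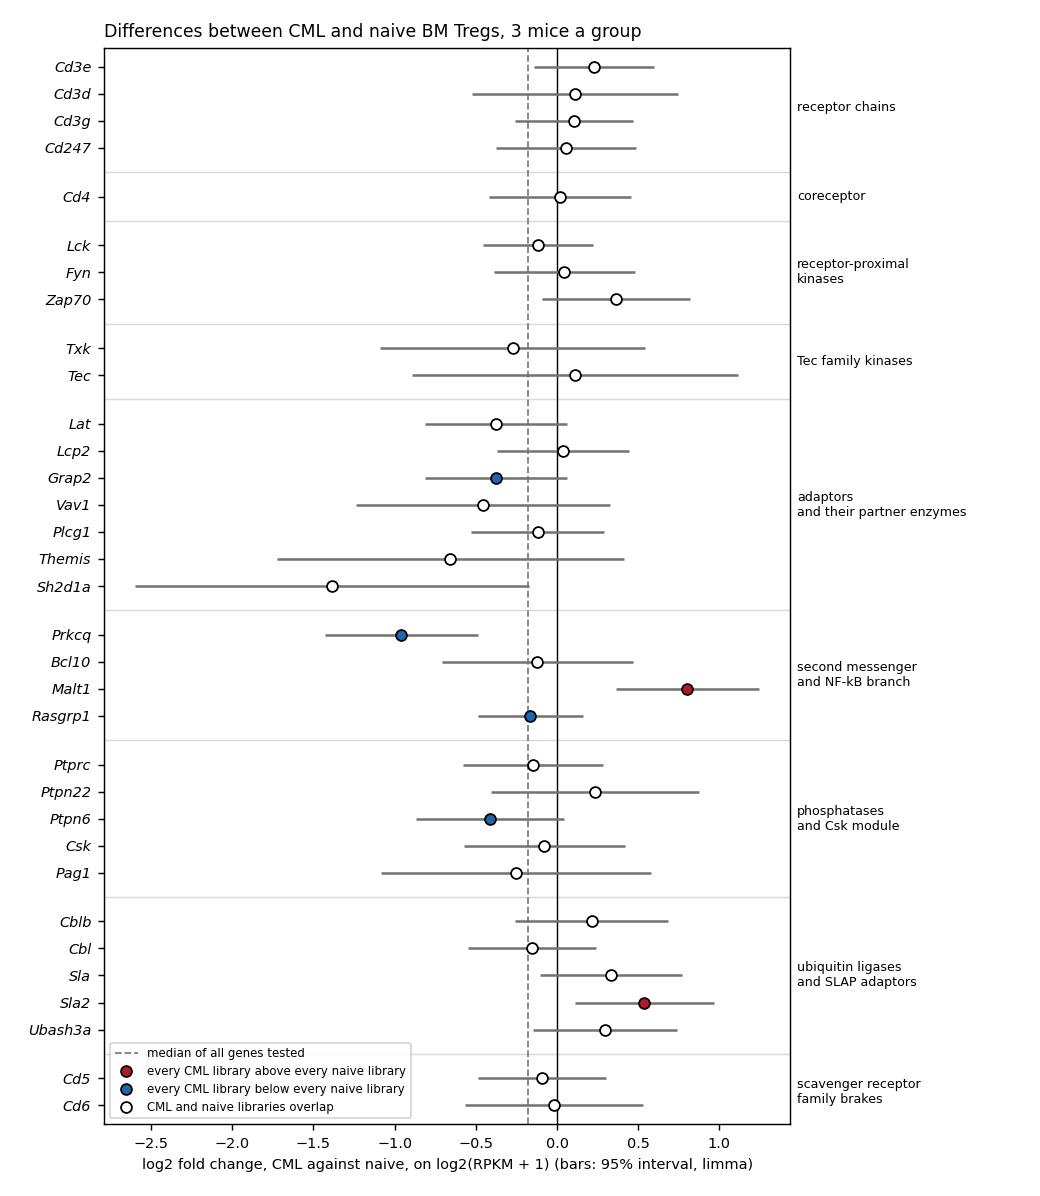
Log2 fold change of each member, CML relative to naive on the log2(RPKM + 1) scale, with its 95% limma interval; the dashed line is the median of all genes tested (−0.18), and filled red or blue points are genes whose CML libraries all lie above or all below the naive ones. Prkcq (−0.96) and Malt1 (0.80) stand farthest from 0 among the genes with separated groups, and Sh2d1a (−1.38) has the widest interval.

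Among the 33 members, the branch from diacylglycerol to NF-κB held the largest differences with separate groups, and they pointed in opposite directions. Prkcq (chr2:11172108-11301222, plus strand), which encodes PKC-θ, the diacylglycerol-dependent kinase of the immune synapse, measured 106, 76.0 and 74.5 RPKM in CML and 153, 199 and 148 RPKM in naive mice. All 3 CML libraries lay below all 3 naive ones, at 85.5 ± 17.8 against 166 ± 27.8 RPKM (SD, n = 3). The log2 fold change was −0.96 ± 0.20 (SE, limma, adjusted p = 0.193), or 1.94-fold lower in CML, and the 95% interval ran from −1.43 to −0.49. Leaving out any 1 library gave −1.12 to −0.83, and over the 13 alternatives the adjusted p ran from 0.117 to 0.694.

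Malt1, the paracaspase that together with BCL10 relays the signal to NF-κB, measured 171, 127 and 130.5 RPKM in CML and 70.5, 78.8 and 95.1 RPKM in naive mice. Every CML library was above every naive library, at 143 ± 24.6 against 81.5 ± 12.6 RPKM (SD, n = 3). The log2 fold change was 0.80 ± 0.19 (SE, limma, adjusted p = 0.240), with a 95% interval from 0.36 to 1.25 and values of 0.67 to 0.92 when 1 library at a time was left out. The adjusted p over the alternatives ran from 0.161 to 0.752.

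Bcl10, the partner of Malt1, was at 43.4, 24.1 and 34.9 RPKM in CML and 36.8, 38.7 and 33.3 RPKM in naive mice, with the naive values inside the CML range. Within a library, Malt1 stood at 1.61, 1.68 and 1.75 times the Prkcq level in CML and at 0.462, 0.397 and 0.641 times in naive mice. That the groups separate in this ratio follows from the opposite separation of both genes. Rasgrp1, the diacylglycerol-bound activator of Ras, differed little but without overlap, at 99.7 ± 1.49 RPKM in CML and 112 ± 3.22 RPKM in naive mice (−0.16, −0.49 to 0.16).

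**Figure D3:**
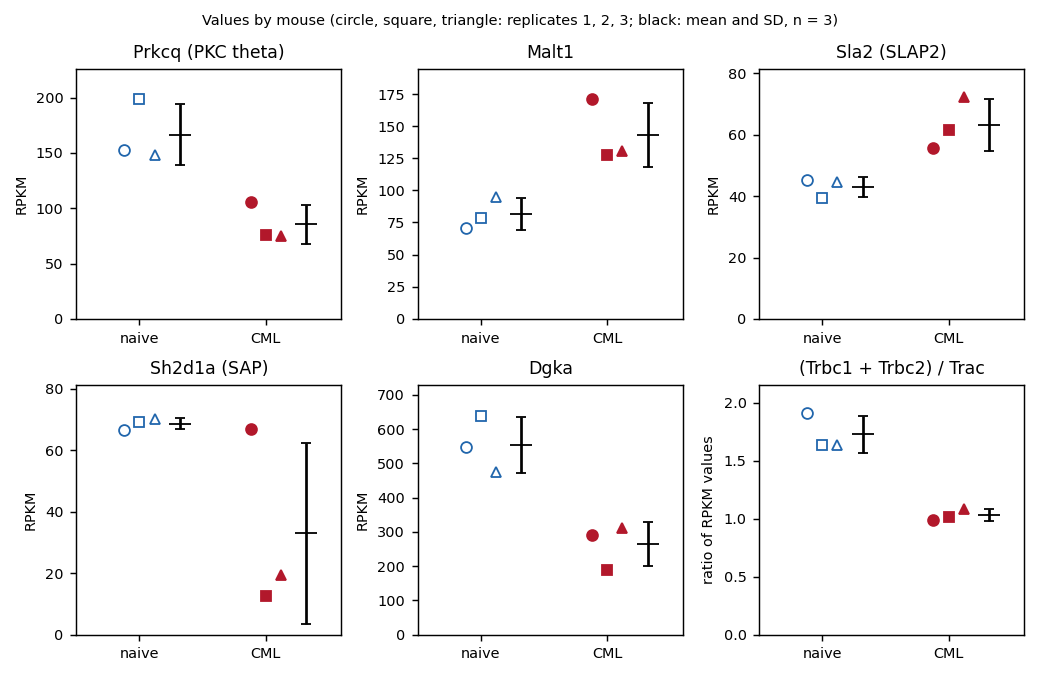
Level of Prkcq, Malt1, Sla2, Sh2d1a and Dgka in RPKM, and the ratio of summed Trbc1 and Trbc2 to Trac, in each library, with the mean and SD of each group (n = 3) in black. All panels but Sh2d1a show separate groups, and Sh2d1a shows 1 CML library at the naive level (66.9 RPKM) and 2 below it (12.7 and 19.5 RPKM).

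Among the negative regulators in the set, Sla2 was the 1 whose groups separated upward. Sla2 (chr2:156872457-156887192, minus strand) encodes SLAP-2, an adaptor that recruits CBL and lowers surface TCR, and measured 55.7, 61.6 and 72.3 RPKM in CML and 45.2, 39.4 and 44.6 RPKM in naive mice. Each CML library exceeded each naive one, with a log2 fold change of 0.54 ± 0.18 (SE, limma, adjusted p = 0.414), or 1.45-fold. Its exons overlap those of Rab5if on the opposite strand over 521 bases. The related Sla measured 202, 156 and 246 RPKM in CML and 169, 152 and 152 RPKM in naive mice, with CML replicate 2 inside the naive range (0.33, adjusted p = 0.608).

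The ubiquitin ligases that these adaptors recruit showed no such separation. Cblb was at 102, 63.7 and 85.7 RPKM in CML and 72.6, 71.2 and 68.4 RPKM in naive mice, and Cbl was at 88.6 ± 12.9 and 98.2 ± 6.42 RPKM (SD, n = 3). The sum of Sla and Sla2 over the sum of Cbl and Cblb was 1.28, 1.57 and 1.80 in CML and 1.21, 1.18 and 1.17 in naive mice, without overlap. Ubash3a, which encodes the weak phosphatase STS-2, measured 78.8, 83.9 and 95.9 RPKM in CML and 57.9, 83.6 and 70.6 RPKM in naive mice, with CML replicate 1 below the highest naive library.

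The upstream window of Sla2 is printed because Sla2 was higher in every CML library. It is chr2:156887222-156887471 on the minus strand, and capitals mark the RUNX letters (TGTGGT, on the opposite strand), which begin 11 bases before the start.
Sla2: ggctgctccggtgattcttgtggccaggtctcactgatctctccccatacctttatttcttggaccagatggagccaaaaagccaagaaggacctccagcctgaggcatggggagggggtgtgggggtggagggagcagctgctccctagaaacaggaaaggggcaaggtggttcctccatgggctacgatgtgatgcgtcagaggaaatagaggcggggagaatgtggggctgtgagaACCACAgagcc
TGTGGT was found in 2 of the 27 windows, those of Lck and Sla2 (7.41%), against 14.2% of all windows.

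The phosphatases and their partners gave smaller differences. Ptprc, which encodes CD45, the phosphatase that primes Lck, was the most abundant member at 619, 397 and 564 RPKM in CML and 561, 589.9 and 570.1 RPKM in naive mice. CML replicate 2 was the lowest and CML replicate 1 the highest, and the log2 fold change was −0.15 (adjusted p = 0.803, limma). Ptpn6, which encodes SHP-1, was below the naive range in each CML library, at 121, 91.6 and 126 RPKM against 179, 128 and 145 RPKM, although CML replicate 3 and naive replicate 2 almost touched (−0.41, −0.87 to 0.04, adjusted p = 0.555). Csk, the kinase that shuts Lck, was at 212 ± 55.3 RPKM in CML and 218 ± 9.34 RPKM in naive mice, and Pag1, its membrane anchor, at 21.1 ± 7.78 and 24.6 ± 6.48 RPKM (SD, n = 3). Ptpn22, which encodes a phosphatase that acts with CSK, measured 90.9, 44.1 and 73.6 RPKM in CML and 50.0, 56.4 and 64.1 RPKM in naive mice, so that CML replicates 1 and 3 were above and CML replicate 2 below all naive libraries.

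The inhibitory receptors had overlapping groups. Cd5, a surface protein whose level tracks TCR signal strength in developing T cells, was at 184 ± 34.5 RPKM in CML and 194 ± 6.49 RPKM in naive mice (log2 fold change −0.09, adjusted p = 0.873, limma). Cd6, its close relative, was at 175 ± 53.1 and 173 ± 25.8 RPKM (−0.02, adjusted p = 0.985).

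Counted over the whole set, the CML libraries lay above every naive library for 2 members, Malt1 and Sla2 (6.06% beside 4.84% of all genes), and below every naive library for 4, Grap2, Prkcq, Rasgrp1 and Ptpn6 (12.1% beside 12.2% of all genes). Leaving out a library can only keep or raise these counts, so the counts that follow do not measure stability. Without CML replicate 2, 11 members (33.3% beside 13.9% of all genes) were above the naive range. They were Cd3e, Cd4, Zap70, Tec, Lcp2, Malt1, Ptpn22, Csk, Cblb, Sla and Sla2. The same 4 genes, Grap2, Prkcq, Rasgrp1 and Ptpn6, were below the naive range without CML replicate 2 (beside 15.9% of all genes). Without CML replicate 3, 8 members (24.2% beside 22.6% of all genes) were below. Taken singly, CML replicate 2 exceeded all naive libraries for 4 members (12.1% beside 18.6% of all genes) and was under all of them for 22 (66.7% beside 55.5% of all genes), whereas CML replicate 3 exceeded them for 17 (51.5% beside 33.6%) and was under them for 7 (21.2% beside 33.8%), and CML replicate 1 exceeded them for 14 (42.4% beside 27.1%) and was under them for 10 (30.3% beside 31.5%).

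**Figure D4:**
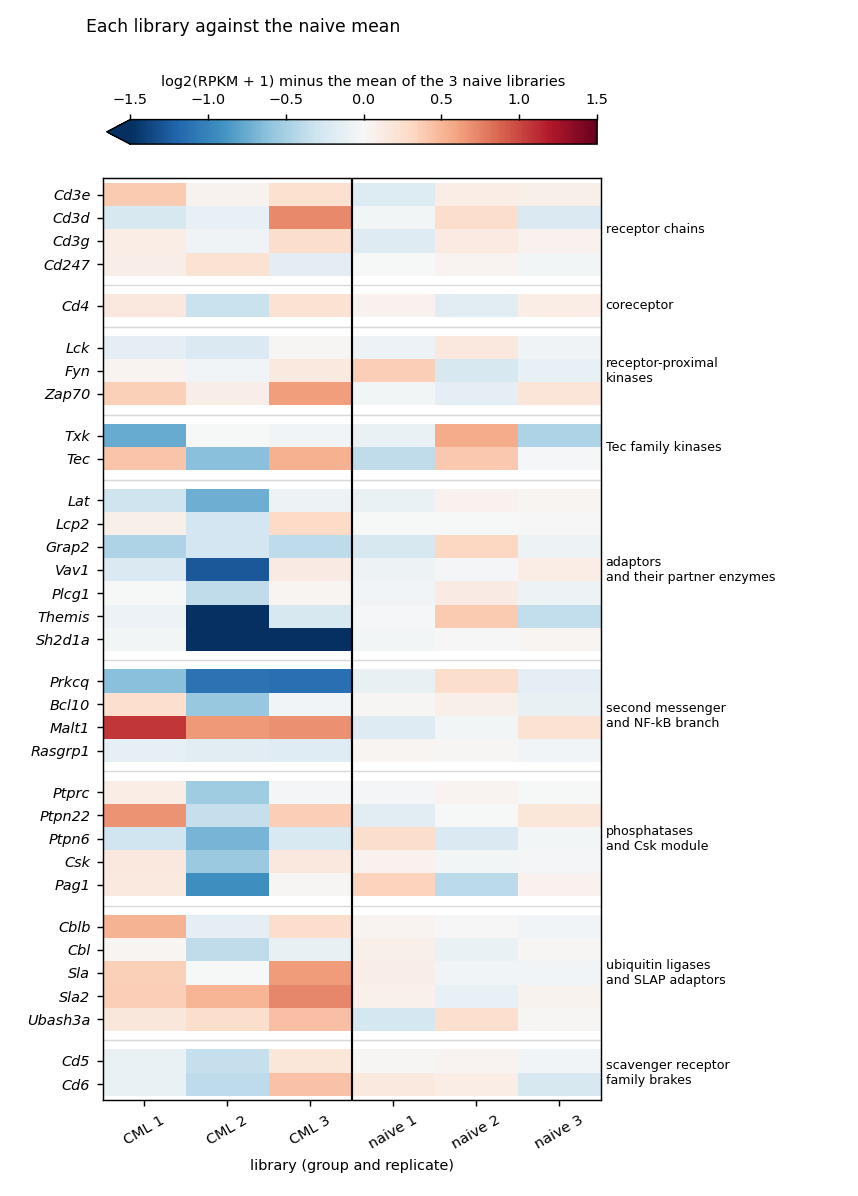
Log2(RPKM + 1) of each member in each library minus the mean of the 3 naive libraries, ordered by role. CML replicate 2 is low over most members (median −0.34) while CML replicates 1 and 3 have medians of 0.09 and 0.15 (−0.42, −0.04 and −0.01 over all genes in replicates 2, 1 and 3), and Prkcq, Grap2 and Ptpn6 are low and Malt1 and Sla2 high in all 3.

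The estimates set limits on what could differ. For 25 of the 33 members the 95% interval lay within a 2-fold difference in either direction, and for 13 within 1.5-fold. The 8 outside 2-fold were Txk, Tec, Vav1, Themis, Sh2d1a, Prkcq, Malt1 and Pag1, of which 6, all but Prkcq and Malt1, rested on fewer than 100 estimated reads in CML replicate 2.

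The other genes of the pathway, from lists made alongside the members, gave 0 calls at an adjusted p under 0.05 in each list (limma). At an unadjusted p under 0.05 with a fold of at least 1.5, 1 of 28 further proximal genes was higher (Ubash3b) and 2 were lower (Trat1 and Dgka), 1 of 16 calcium and NFAT genes was higher (Rcan1) and 1 lower (Orai2), 1 of 16 Ras and MAPK genes was higher (Dusp6, with Spry2 too low to test), 1 of 3 TCR constant genes was lower (Trbc1), and 0 of 11 genes of the IKK complex and the NF-κB steps around it passed in either direction. Over all genes tested the shares were 2.61% higher and 5.94% lower. In lists this small 1 gene makes a large share, such as 33.3% of the 3 TCR constant genes. Counts of 1 or 2 therefore cannot be told from the shares over all genes. Dgka, a diacylglycerol kinase that removes the lipid activating PKC-θ and RasGRP1, measured 292, 190.1 and 311 RPKM in CML and 548, 639 and 475 RPKM in naive mice. Each CML library lay below each naive one, with a log2 fold change of −1.09 ± 0.22 (SE, limma, adjusted p = 0.161). The adjusted p was 0.0483 after quantile normalization and 0.0458 with the libraries set to the same 75th percentile, the 2 alternatives of 13 that called it, and its exons overlap those of Pmel over 105 bases. Set against Dgkz, the other main diacylglycerol kinase of T cells, Dgka stood at 3.63, 3.47 and 3.94 times its level in CML and 5.93, 6.80 and 5.89 times in naive mice.

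Trat1, which encodes TRIM, a transmembrane adaptor of the TCR complex, measured 19.4, 10.2 and 33.1 RPKM in CML and 45.8, 57.2 and 44.5 RPKM in naive mice without overlap (−1.33, adjusted p = 0.323, limma). Ubash3b, which encodes the phosphatase STS-1, was above the naive range in each CML library at 23.6, 28.3 and 32.7 RPKM against 15.6, 20.5 and 18.9 RPKM (0.59, adjusted p = 0.501). Orai2, a pore subunit of store-operated calcium channels, was at 8.74 ± 2.50 RPKM in CML and 19.4 ± 3.39 RPKM in naive mice (−1.08, adjusted p = 0.325). Dusp6, an ERK phosphatase and a target of ERK signaling, was at 17.3 ± 3.83 RPKM in CML and 7.89 ± 1.51 RPKM in naive mice (1.04, adjusted p = 0.357). Rcan1, a calcineurin regulator and NFAT target, was at 6.89, 5.42 and 17.7 RPKM in CML and 0.289, 5.47 and 1.84 RPKM in naive mice, so the groups overlapped through CML replicate 2.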

How the data were processed

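BM Tregs were sorted from 3 CML and 3 naive mice, and groups follow the sample labels. RNA was amplified with a SMART-Seq low-input kit. The authors deposited 1 RPKM value per feature and library (reads scaled to feature length and library size), with 0.001 where a feature had no reads, which was set to 0 here. The unit was taken from the study and the values, since the files have no header, and the strand setting and length model are not given in the sources used here. The submitters' processing notes name GRCm38 (mm10). The study's methods describe alignment with SeqMan NGen and quantification with ArrayStar. Amplification gives uneven coverage and no molecular identifiers, and a kit of this kind does not mark strand, so reads of overlapping opposite genes cannot be told apart. Read counts were not used here. Whole multiples made up 31.9% to 59% of the low miRNA and snoRNA values above the product taken as 1 read. By chance 10% would fall so. Such shares are too low to recover counts, so the read numbers given are estimates. Those of single members also assume the length of the longest transcript in GENCODE M21.

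Genes were tested, where their average across libraries reached 1 RPKM, with limma 3.58.1 (R 4.3.3) on log2(RPKM + 1) with a trended variance and no replicate block, Benjamini-Hochberg adjusted over all 13923 genes. 41 names listed more than once (90 rows) were kept as separate features. Sums and ratios of genes are given without a test, since they were chosen after the values were seen. All members are described, and pathway genes are named where they pass an unadjusted p under 0.05 with a fold of at least 1.5. Outside that rule, Trac, Trbc2 and Dgkz are named for comparison with genes that pass, and Spry2 as too low to test. The members and lists were chosen with earlier results of these data known. Alternatives were a pseudocount of 0.1, no filter, a mean of at least 5 RPKM, quantile normalization, scaling to the same 75th percentile, a replicate block, library weights and leaving out each library. The fit was tested on simulated data. Gene positions and exon overlaps come from GENCODE M21, and upstream sequences from RefSeq (GRCm38.p6), with both strands searched. Besides the overlaps named above, exons of Cd3e, Lat, Lck, Lcp2, Plcg1, Ptpn6 and Themis overlap those of other annotated genes. The longest of these is that of Ptpn6 with Gm20531 on the opposite strand, over 195 bases. Results for 1 gene of the pathway lists are not reported here.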

Additional observations from a re-analysis of the deposited data

How the results depend on the processing

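No member passed an adjusted p under 0.05 with a fold of at least 1.5 under any of the 13 alternatives (limma), so no call among the members changed, the replicate block included, with 0 called. The replicate numbers name different mice. The deviations of same-numbered libraries correlated at −0.005, −0.002 and −0.019, and those of differently numbered libraries at −0.042 to 0.052. With 3 mice a group such values cannot settle whether same-numbered libraries were handled together. The log2 fold changes of 19 members kept their direction throughout. The median over the members, −0.08, became 0.03 with quantile normalization, −0.01 at the same 75th percentile and 0.05 with library weights. With 1 library left out the member median ran from −0.18 to 0.10. The median of all genes, −0.18, became −0.0068, −0.12 and −0.0826 under the same alternatives, in that order. With 1 library left out the median of all genes ran from −0.24 to −0.03. The count of members higher at an unadjusted p under 0.05 and a fold of at least 1.5, 1, became 2 with quantile normalization and with the same 75th percentile and ran from 1 to 2 with 1 library left out, and the count lower, 2, became 1 with library weights and ran from 1 to 2. Members above every naive library numbered 2 in the full fit (6.06% beside 4.84% of all genes) and 3 to 11 with 1 library left out. The 11, without CML replicate 2, were 33.3% beside 13.9% of all genes. Members below numbered 4 in the full fit (12.1% beside 12.2%) and 4 to 8 with 1 left out. The 8, without CML replicate 3, were 24.2% beside 22.6%. Leaving out a library can only keep or raise such counts, so their rise does not measure stability. For the left-out libraries not named here, the share of all genes was not computed. Signs turned, in genes never called, for Bcl10 (0.0923 with library weights), Csk (0.0293 with quantile normalization, 0.0812 with weights), Pag1 (0.0035 with weights) and Cd6 (0.0344 with quantile normalization, 0.0531 at the same 75th percentile, 0.0610 with weights). With 1 library left out the log2 fold change ran from −0.19 to 0.29 for Cd3d, −0.0286 to 0.16 for Cd247, −0.0899 to 0.19 for Cd4, −0.0775 to 0.23 for Fyn, −0.50 to 0.0051 for Txk, −0.10 to 0.48 for Tec, −0.10 to 0.19 for Lcp2, −0.19 to 0.0079 for Plcg1, −0.31 to 0.10 for Bcl10, −0.28 to 0.0424 for Ptprc, −0.20 to 0.16 for Csk, −0.46 to 0.0818 for Pag1, −0.23 to 0.0394 for Cd5 and −0.25 to 0.17 for Cd6. The cause of these turns was not tested. In CML replicate 2 the median member rested on an estimated 351 reads, and what this depth limits was not tested.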
